A study of Mus musculus with 10 samples.

Results

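The genes described here encode the proteins of elastic fibres: elastin (Eln), the fibrillins (Fbn1, Fbn2), the microfibril-associated proteins (Mfap2, Mfap4, Mfap5) and the fibulins (Fbln1, Fbln2, Fbln5 and Efemp2, which encodes fibulin-4). The 10 genes were a list chosen by name, and all 10 were among the 46095 gene symbols of the RNA-seq count table. For chromatin, peaks within 5 kb of each gene body were taken, which gave 26 of the 29289 regions merged over 4 ATAC-seq libraries (ATAC-seq marks open chromatin by transposase insertion). All libraries came from C3H10 T1/2 cells, a mouse embryo mesenchymal line that can form bone, fat and cartilage cells, and the RNA-seq labels give the mouse strain as C57BL/6. For RNA-seq, 3 control libraries came from static cells, and 3 came from cells that received cyclic mechanical strain (CMS), a repeated stretch of 10% at 0.5 Hz for 8 h a day over 3 days. Both were grown for 48 h on collagen type I-coated flexible plates before strain began. For ATAC-seq, 2 libraries came from control cells labelled GFP and 2 from cells in which Piezo1, a mechanically gated ion channel gene, was knocked out with CRISPR/Cas9. The ATAC-seq labels name no strain, and they do not say whether the knockout cells were 1 clone. A peak list cannot show whether Piezo1 was lost, so the knockout is taken from the labels. No sample was measured by both assays, and the labels do not say whether replicates were separate cultures, so p-values measure a spread that may be technical.

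An elastic fibre has a core of crosslinked elastin in a mantle of fibrillin microfibrils. Tropoelastin, the soluble precursor, is gathered by fibulin-4 and fibulin-5, crosslinked by lysyl oxidases and laid onto microfibrils that also bind latent TGF-beta complexes. Microfibrils without elastin also occur, as in the ciliary zonule of the eye, and fibroblasts and vascular smooth muscle cells are the main makers of elastic fibres in connective tissue and arteries.

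The RNA-seq libraries held 36150738 to 41024689 counts. Static replicate 3 stood apart from the other static libraries (chi-square per degree of freedom 37.5 and 59.6, against 9.19 between replicates 1 and 2), and strain replicate 1 stood apart from the other strain libraries (44.3 and 34.7, against 15.7). No pair of replicates agreed within sampling noise. Of 8 mesenchymal markers 7 averaged at least 1 CPM (counts scaled to a common library total), but Thy1 was nearly absent (0.0283 CPM static and 0.00800 CPM strained on average). The summed mesenchymal markers lay between 59146 and 60342 CPM in static and between 35874 and 41607 CPM in strained libraries. Col1a1 and Col1a2 made up most of these sums. Of the 7 tested, 4 were lower (Col1a1, Col1a2, Vim and Twist1), against 7.39% of all genes tested. Pdgfra, Pdgfrb and Prrx1 were not called (edgeR adjusted p = 0.910, 0.866 and 0.238), and Prrx1 was higher in every strained library than in any static one. The summed endothelial markers reached at most 1.19 CPM in any library, with Cdh5 and Emcn at 0. The 5 macrophage markers summed to between 12.1 and 15.3 CPM in static and between 14.3 and 16.5 CPM in strained libraries, with Ptprc at 0, Lyz2 at 11.1 and 11.2 CPM on average and 0 called. The 5 epithelial markers summed to between 8.44 and 9.74 CPM and between 3.00 and 4.53 CPM, with Epcam at 0 and 1 called, Cdh1, which fell from 7.56 to 2.02 CPM (edgeR adjusted p = 0.00211). The 5 chondrocyte markers summed to between 67.4 and 76.4 CPM and between 54.8 and 78.3 CPM, mostly from Sox9, with Matn1 at 0 and 1 called, Comp, which fell from 2.70 to 0.916 CPM (edgeR adjusted p = 0.0111). The part of these cell type markers in the results was not tested.

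All 10 genes passed the filter on low counts, and 4 fell under strain while 0 rose (edgeR quasi-likelihood test, Benjamini-Hochberg adjusted p under 0.05 over all genes tested). Eln, Mfap4, Mfap5 and Fbln1 were the genes that fell. Of these, Eln and Mfap4 reached the minimum CPM of the filter in every static library but not in every strained one. These 2 genes thus entered the count through the group in which they were high. Over all 15335 genes tested, 13.3% were called, 5.94% as higher and 7.39% as lower under strain. At an unadjusted p under 0.05, 2 of the 10 were higher (Fbn1 and Fbln5) and 6 lower. At that threshold 2222 of the 15335 genes tested were higher and 2322 lower. DESeq2 called 2 of the 10 higher and 5 lower, with 1320 higher and 1540 lower over all genes. For limma-voom these numbers were 1 and 4, with 934 and 1147 over all genes. Without static replicate 3 and strain replicate 1, the libraries that stood apart, edgeR called 2 higher (Fbn1 and Fbln5) and 5 lower (Fbn2 and the same 4). That fit called 1512 higher and 1614 lower over all genes, against 911 and 1134 with all libraries. The median log2 fold change of the 10 genes was −0.51, against 0.0049 over all genes tested. The libraries of the groups did not overlap in 6 of the 10 genes (strain below in 5 and above in 1), and over all genes tested this held for 35.3%, with strain below in 17.9% and above in 17.4%. The genes were chosen with earlier results of these data known, so these shares describe the list and test nothing about it. Less RNA per cell and fewer cells that express a gene cannot be told apart in such bulk libraries. Levels are given in CPM scaled by TMM (a trimmed mean that balances library composition), which does not correct for transcript length, so levels are compared between libraries and not between genes.

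**Figure D1:**
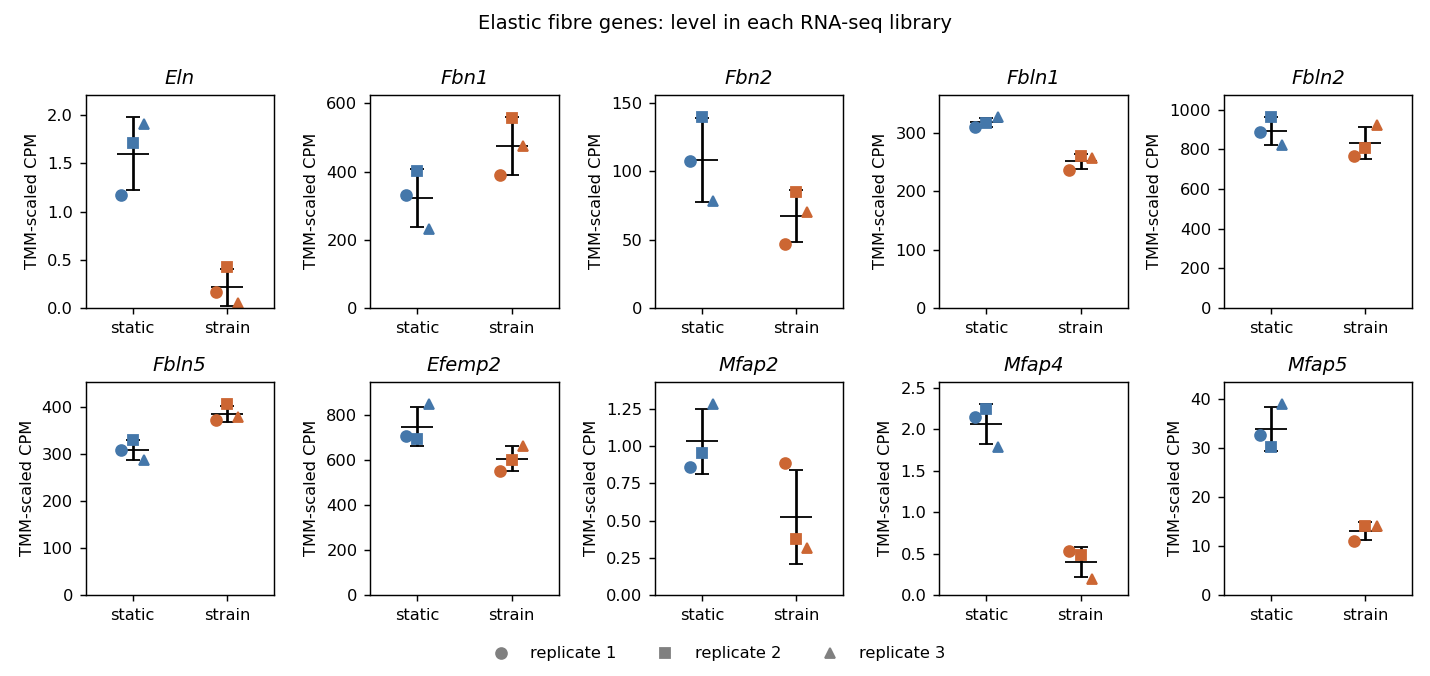
Level of each of the 10 elastic fibre genes in TMM-scaled CPM (vertical axes, linear from 0) in 3 static and 3 strained libraries. Symbols give the replicate, and black bars the mean and SD. For Eln, Mfap4, Mfap5, Fbln1 and Efemp2 every strained library lies below every static library, and for Fbln5 every strained library lies above.

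Elastin mRNA was scarce in static cells and scarcer under strain. Eln, on chromosome 5 from 134702595 to 134747368 (build mm10, here GRCm38.p6), had 45, 61 and 67 counts in static replicates 1 to 3. Strain replicates 1 to 3 had 7, 16 and 2 counts. In CPM these were 1.18, 1.71 and 1.90 against 0.168, 0.427 and 0.0484. All 3 strained libraries were below all 3 static libraries, and strain replicate 3 held almost no reads. The mean was 1.60 ± 0.378 CPM in static and 0.215 ± 0.194 CPM in strained cells (SD over n = 3 libraries; fitted log2 change −2.90, SE 0.56, edgeR adjusted p = 0.00758). The summed counts of 25 and 173 gave a ratio of 0.131 with a 95% exact interval of 0.0825 to 0.200, which covers counting error only. Eln was 7.47-fold lower in the fit with all libraries. Without strain replicate 2 the log2 fold change was −3.84, or 14.4-fold lower, and without strain replicate 3 it was −2.43, or 5.39-fold lower. These were the ends of the range with 1 library left out, and the call held each time (edgeR adjusted p up to 0.0317). Eln reached the minimum CPM of the filter in 3 static libraries but in 1 strained library, and Mfap4 in 3 and 2. Both thus passed through the group in which they were high. The annotated gene Gm30003 overlaps Eln, and it had 0 counts in every library.

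Among 10235 candidate genes, the profile over the 6 libraries closest to that of Eln was that of Syt5, a synaptotagmin gene (root-mean-square difference 0.51 in centred log2 CPM). Next came Penk, which encodes the enkephalin precursor (0.52), and the imprinted gene Mest (0.62). Their log2 fold changes of −3.16, −2.71 and −2.51 follow from the choice by likeness to Eln over these libraries and are a description. Penk went from 173, 164 and 213 CPM in the static replicates to 26.7, 34.3 and 23.1 CPM in the strained ones.

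Smooth muscle cells are another source of elastin, so their markers were measured beside it. Of 6 vascular smooth muscle markers 5 averaged at least 1 CPM, none was at 0 in all libraries, and Myh11 averaged 0.136 CPM in static and 0.200 CPM in strained cells. Their summed level lay between 3106 and 3992 CPM in static and between 2329 and 3102 CPM in strained libraries, mostly from Acta2. Of 5 tested, 2 (Smtn and Des) were lower, against 7.39% of all genes tested. The part of these markers in the Eln result was not tested.

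The fibrillin genes encode the backbone of the microfibril, and neither passed the test, though their fitted differences had opposite signs. Fbn1, the fibrillin of adult tissue, was at 330, 402 and 233 CPM in static replicates 1 to 3 against 388, 558 and 475 CPM in the strained replicates, in the same order. Strain replicates 2 and 3 were above every static library, while strain replicate 1 lay below static replicate 2. Its mean went from 322 ± 85.0 to 474 ± 84.6 CPM (SD, n = 3 each), and the difference did not pass the test (log2 fold change 0.56, SE 0.19, edgeR adjusted p = 0.0775). Fbn2, the fibrillin made mostly in the embryo, was at 108, 139 and 78.1 CPM in the static and 47.2, 85.2 and 70.1 CPM in the strained replicates. Strain replicate 2 exceeded static replicate 3, so the groups overlapped, and this difference also missed the threshold (log2 fold change −0.68, SE 0.23, edgeR adjusted p = 0.0745). DESeq2 called both, with adjusted p of 0.0284 for Fbn1 and 0.0211 for Fbn2, as did edgeR without the 2 libraries that stood apart (0.00777 and 0.00347). Static replicate 3 was the lowest static library for both genes. Leaving it out moved Fbn1 to 0.37 (adjusted p = 0.154) and Fbn2 to −0.87, which passed the test (0.0281). Fbn2 also passed without strain replicate 2 (0.0488), and Fbn1 without static replicate 2 (0.0188). Another annotated gene, Gm41741, overlaps Fbn2.

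Within a library the fibrillins kept a steadier proportion than either gene's level, and that proportion differed between the groups. There were 3.07, 2.88 and 2.98 Fbn1 counts for each Fbn2 count in static replicates 1 to 3. In the strained replicates there were 8.24, 6.54 and 6.79. The static values were nearly alike, and the lowest strained value was above the highest static value. The mean count ratio was 2.97 ± 0.0917 in static and 7.19 ± 0.915 in strained cells (SD, n = 3), 2.42 times as high. A ratio of counts within a library does not depend on the scaling between libraries. It was computed after the values of both genes had been seen, and it is a description with no test.

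**Figure D2:**
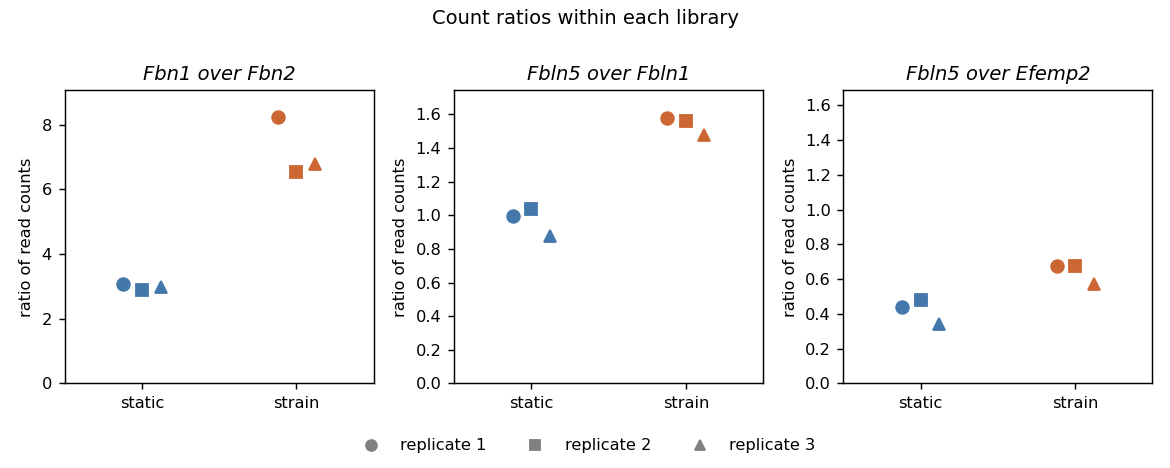
Ratio of read counts (vertical axes, linear from 0) of Fbn1 to Fbn2, Fbln5 to Fbln1 and Fbln5 to Efemp2 within each of the 3 static and 3 strained libraries. In each panel every strained library lies above every static library, and for Fbn1 over Fbn2 the static libraries lie between 2.88 and 3.07.

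The Fbn1 promoter is shown because an ATAC-seq peak was present beside it in all 4 libraries. Fbn1 spans chromosome 2 from 125300594 to 125506485 on the minus strand, and the sequence is the 250 bases before its RefSeq start (chr2:125506439-125506688, GRCm38.p6, 5′ to 3′ on the minus strand), with a GC box (GGGCGG) in capitals.
Fbn1: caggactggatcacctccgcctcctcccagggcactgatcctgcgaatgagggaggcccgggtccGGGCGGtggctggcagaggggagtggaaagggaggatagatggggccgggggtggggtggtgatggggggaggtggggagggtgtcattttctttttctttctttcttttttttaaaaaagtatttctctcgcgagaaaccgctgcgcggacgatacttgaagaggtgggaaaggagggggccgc
The window holds 59.2% G and C, against a median of 52.4% over 32851 promoter windows of that length in the RefSeq table. The search covered both strands. The TATA box, with the letters TATAAA, occurs in 12.4% of all windows and CCAAT in 33.8%, while the GC box letters occur in 32.7%. The AP-1 motif, TGANTCA, occurs in 6.75% and the TEAD motif, GGAATG, in 12.6%. The GC box was the only match at Fbn1.

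Of the 3 microfibril-associated genes, Mfap5 and Mfap4 fell under strain and Mfap2 did not pass the test. Mfap5 encodes MAGP-2, a glycoprotein that binds fibrillin, and lies on chromosome 6 from 122513584 to 122529290. It was at 32.7, 30.2 and 39.0 CPM in static and 10.97, 14.2 and 14.1 CPM in strained replicates 1 to 3. Every strained library lay far below every static library, and the strained libraries were close to each other. The mean fell from 33.96 ± 4.51 to 13.1 ± 1.84 CPM (SD over n = 3 libraries; fitted log2 change −1.38, SE 0.15, edgeR adjusted p = 2.66e-04). With 1 library left out the log2 fold change lay between −1.45 and −1.26, and the call held each time.

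Mfap4 encodes a fibrinogen-related protein that binds elastin and microfibrils, and lies on chromosome 11 from 61485431 to 61488708. It had 82, 80 and 63 counts in the static and 22, 18 and 8 counts in the strained replicates, or 2.14, 2.25 and 1.79 CPM against 0.528, 0.481 and 0.194 CPM. The groups were well separated, with strain replicate 3 the lowest. The mean fell from 2.06 ± 0.238 to 0.401 ± 0.181 CPM (SD over n = 3 libraries; fitted log2 change −2.36, SE 0.38, edgeR adjusted p = 0.00298), and the call held without any single library (adjusted p up to 0.0150). Mfap2, which encodes MAGP-1 and lies on chromosome 4 from 141010424 to 141015976, had 33, 34 and 45 counts in the static and 37, 14 and 13 counts in the strained replicates. Strain replicate 1, at 0.888 CPM, lay within the static range of 0.862 to 1.28 CPM, and the other 2 strained libraries were below it at 0.374 and 0.315 CPM. The difference did not pass the test (log2 fold change −0.96, SE 0.44, edgeR adjusted p = 0.177). Without strain replicate 1 it did (−1.58, adjusted p = 0.0449).

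Of the 4 fibulin genes 1 fell, and 3 did not pass the test. Fbln1, whose protein associates with the elastin core and with basement membranes, spans chromosome 15 from 85205949 to 85286294. Its levels were 311, 318 and 327 CPM in static and 237, 260 and 257 CPM in strained replicates 1 to 3. The groups did not overlap, and the libraries within each were close together. Fbln1 fell 1.27-fold, from 319 ± 8.10 to 252 ± 12.5 CPM (SD over n = 3 libraries; fitted log2 change −0.34, SE 0.09, edgeR adjusted p = 0.0369). The call was lost without static replicate 1 or 2 or any strained replicate (adjusted p up to 0.124), and with library size alone as scaling (adjusted p = 0.0518).

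Fbln5 encodes fibulin-5, which binds tropoelastin, lysyl oxidase-like 1 and cell-surface integrins, and spans chromosome 12 from 101746565 to 101819119 on the minus strand. It was the gene whose strained libraries all lay above the static ones, at 374, 406 and 379 CPM against 310, 330 and 287 CPM. The means were 386 ± 17.4 and 309 ± 21.4 CPM (SD, n = 3 each), and the difference narrowly missed the threshold (log2 fold change 0.32, SE 0.10, edgeR adjusted p = 0.0542). DESeq2 (adjusted p = 0.0182), limma-voom (0.0499) and library size alone as scaling (0.0314) put it past the threshold. It missed with DESeq2 size factors (edgeR adjusted p = 0.0571), with no filter (0.0568) and with any 1 library left out (0.0590 to 0.197). Efemp2 encodes fibulin-4, which brings lysyl oxidase to tropoelastin, and lies on chromosome 19 from 5473946 to 5482520. It was at 704, 690 and 845 CPM in static and 551, 600 and 661 CPM in strained replicates, and the strained libraries all lay below the static ones. The difference did not pass the test (log2 fold change −0.31, SE 0.12, edgeR adjusted p = 0.110). Without static replicate 3, its highest library, the log2 fold change was −0.21.

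Fbln2, whose protein links fibrillin, fibronectin and basement membrane proteins, spans chromosome 6 from 91212460 to 91272540 and overlapped between the groups. It was at 889, 960 and 819 CPM in static and 765, 806 and 921 CPM in strained replicates (log2 fold change −0.10, SE 0.11, edgeR adjusted p = 0.590). The count of Fbln5 reads for each Fbln1 read was 0.997, 1.04 and 0.878 in static and 1.58, 1.56 and 1.48 in strained replicates. For each Efemp2 read it was 0.440, 0.478 and 0.340 against 0.678, 0.677 and 0.574. Both ratios were higher in every strained library than in any static one, and like the fibrillin ratio they were formed after the values were seen.

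Promoters of Fbln5 and Fbln2 are shown because peaks lay at their starts in both GFP libraries and in neither Piezo1 knockout library. Each is the 250 bases before a RefSeq start in GRCm38.p6, 5′ to 3′ on the gene's strand, with matches to the 5 motifs in capitals. The first Fbln5 window is chr12:101819120-101819369 (minus strand), and the second, before an internal start, is chr12:101818485-101818734 (minus strand). The Fbln2 window is chr6:91212514-91212763 (plus strand). It too lies before an internal start, at 91212764, and inside the gene body, which begins at 91212460.
Fbln5 first start: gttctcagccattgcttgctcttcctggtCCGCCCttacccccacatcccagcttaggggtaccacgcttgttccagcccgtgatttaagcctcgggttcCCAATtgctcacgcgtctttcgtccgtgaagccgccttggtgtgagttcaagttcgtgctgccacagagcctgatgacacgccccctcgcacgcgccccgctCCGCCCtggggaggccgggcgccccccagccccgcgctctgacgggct
Fbln5 internal start: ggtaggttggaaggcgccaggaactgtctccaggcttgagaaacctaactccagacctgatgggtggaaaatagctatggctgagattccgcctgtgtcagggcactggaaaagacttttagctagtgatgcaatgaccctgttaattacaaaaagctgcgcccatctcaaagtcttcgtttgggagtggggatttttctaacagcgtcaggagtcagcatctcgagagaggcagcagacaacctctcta
Fbln2: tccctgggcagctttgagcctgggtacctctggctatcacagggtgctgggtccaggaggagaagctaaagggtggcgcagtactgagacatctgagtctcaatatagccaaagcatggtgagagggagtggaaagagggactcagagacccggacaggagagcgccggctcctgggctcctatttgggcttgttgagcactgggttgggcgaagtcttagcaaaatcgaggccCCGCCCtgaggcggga
The first Fbln5 window had 2 GC boxes and 1 CCAAT box, the internal one had no match, and Fbln2 had 1 GC box. Their shares of G and C were 65.2%, 49.6% and 58.8%. In all, 6 of the 10 genes matched the RefSeq table, with 11 windows, and in these no TATA box or AP-1 match was found and 1 TEAD match, at the first start of Mfap2. Such a match describes the letters in the window only.

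The partners of the elastic fibre were read from a list of 49 genes (crosslinking, TGF-beta latency, other microfibril-associated proteins, elastin-degrading enzymes with their inhibitors, and receptors). Of these, 44 passed the filter, 6 rose and 6 fell, with a median log2 fold change of 0.04, against 5.94% and 7.39% of all genes tested. The numbers of higher and lower calls were 1 and 2 without static replicate 1, 3 and 4 without static replicate 2, 3 and 5 without static replicate 3, 5 and 4 without strain replicate 1, 1 and 6 without strain replicate 2, and 1 and 2 without strain replicate 3. The calls of Ltbp2, Loxl2 and Mmp9 held when any single library was left out, and those of the other 9 were lost at least once (adjusted p up to 0.190).

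Of 7 crosslinking genes 1 rose and 1 fell. Lox, the main lysyl oxidase gene, was at 2275 ± 249 CPM in static and 2064 ± 233 CPM in strained cells (SD, n = 3; edgeR adjusted p = 0.479), and Loxl1, whose protein is tied to elastin deposition, at 146 ± 13.9 and 158 ± 17.3 CPM (0.554). Loxl2, a lysyl oxidase-like gene, fell from 37.8 ± 0.960 to 24.8 ± 2.66 CPM (log2 fold change −0.61, SE 0.11), and Loxl3 rose from 67.7 ± 2.57 to 88.3 ± 11.3 CPM (0.38, SE 0.11), a call that limma-voom (adjusted p = 0.0532) and DESeq2 size factors (0.0529) did not give. Of 7 genes of TGF-beta and its latency proteins 1 rose and 2 fell. Ltbp2, which encodes a fibrillin-like protein of microfibrils that also binds fibulin-5, rose from 170, 192 and 140 CPM in the static to 253, 327 and 326 CPM in the strained replicates, with no overlap (log2 fold change 0.85, SE 0.14, edgeR adjusted p = 0.00349). The growth factor genes Tgfb2 (−0.54) and Tgfb3 (−0.35) fell. The Tgfb3 call was lost in each of the 6 fits with 1 library left out (adjusted p from 0.0537 to 0.1055) and with library size alone as scaling (0.0522).

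Of 11 tested microfibril-associated genes 2 rose and 1 fell. Efemp1, which encodes fibulin-3, rose from 1.33 ± 0.0688 to 2.62 ± 0.465 CPM (SD over n = 3 libraries; fitted log2 change 0.98, SE 0.25), and Emilin2, an elastin-microfibril interface gene, rose from 109 ± 5.12 to 150 ± 24.0 CPM (0.46, SE 0.12). Adamts17, a secreted protease gene of the group that acts on microfibrils, had 51, 63 and 48 counts in the static and 1, 17 and 15 in the strained replicates (log2 fold change −2.41, SE 0.60). Adamts17 reached the minimum CPM of the filter in 3 static and 2 strained libraries, so it too passed through the group in which it was high. Among 9 tested elastin-degrading enzymes and inhibitors, Ctsk, the cathepsin K gene, rose (log2 fold change 0.41) and Mmp9, a gelatinase gene, fell from 3.47 ± 0.780 to 1.04 ± 0.191 CPM (log2 fold change −1.73, SE 0.27, edgeR adjusted p = 0.00245). The elastases of inflammatory cells were nearly absent: Mmp12, Ctss and Elane averaged 0.146 CPM or less in each group and were not tested. Among 10 receptor genes the integrin subunit gene Itgb8 rose from 0.966, 1.91 and 0.455 CPM to 3.26, 4.25 and 3.20 CPM (log2 fold change 1.68). Its log2 fold change was 1.31 without static replicate 3 and 2.31 without static replicate 2. Itga8 fell from 3.996, 5.62 and 2.87 CPM to 1.34, 2.16 and 1.91 CPM (−1.20). With 1 library left out the Itgb8 call was lost in 3 fits and the Itga8 call in 4 (edgeR adjusted p up to 0.0795 and 0.0665). The Ctsk and Emilin2 calls were lost in 5 such fits each (edgeR adjusted p up to 0.154 and 0.1485). The Efemp1 call was lost in 4 and the Adamts17 call in 2 (edgeR adjusted p up to 0.117 and 0.06495).

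**Figure D3:**
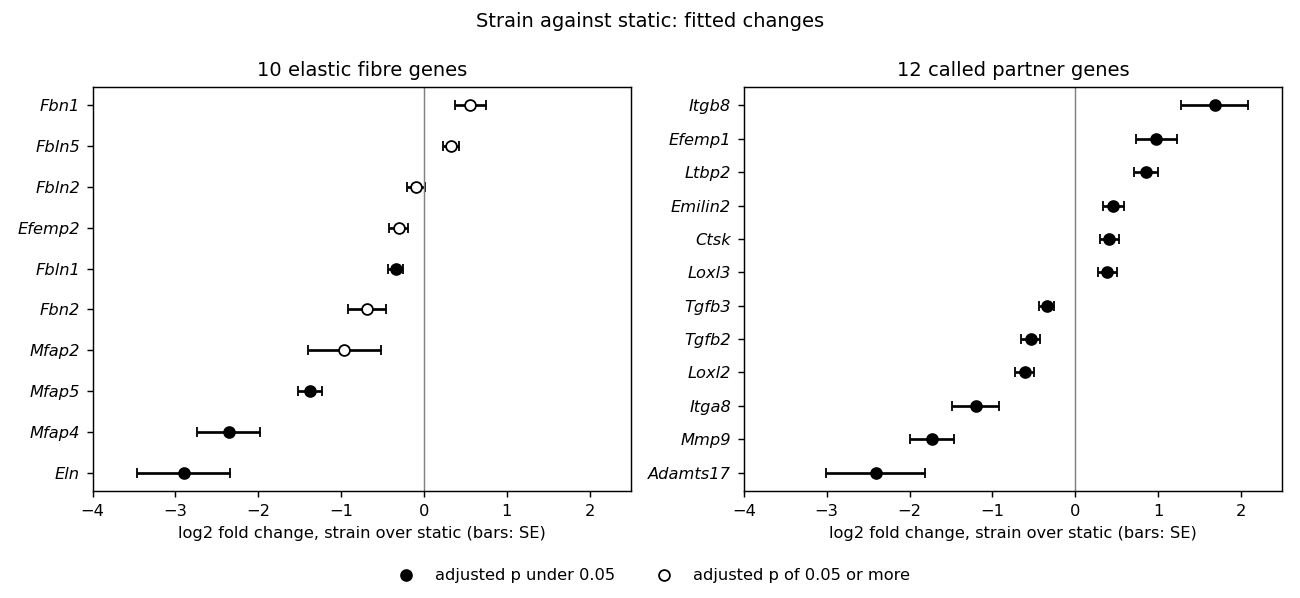
Fitted log2 fold change of strain over static (horizontal axis, bars give the SE) for the 10 elastic fibre genes (left) and the 12 partner genes called (right), from 3 libraries a group. Filled points passed the adjusted p threshold of 0.05: Eln, Mfap4, Mfap5 and Fbln1 on the left, all on the side of a decrease.

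Open chromatin near the genes was compared between GFP and Piezo1 knockout cells by the presence of the authors' peaks. At least 1 peak lay within 5 kb of 5 and 7 of the 10 genes in GFP replicates 1 and 2, and of 4 and 3 genes in knockout replicates 1 and 2. Among the genes tested in RNA-seq that have a position in the annotation, such a peak was found for 61.2% and 76.3% in the GFP and 63.6% and 62.1% in the knockout libraries. The lists held 15978 and 26652 peaks for GFP and 15980 and 13610 for the knockout. The read depth behind the lists is unknown, so a missing peak is a peak not called. Eln and Mfap4 had no peak within 5 kb in any library.

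Of the 26 regions, 3 had a peak in all 4 libraries, against 26.4% of all regions, 6 in both GFP and neither knockout library, against 10.6%, and 1 in both knockout and neither GFP library, against 1.57%. Regions within 1 gene share their surroundings, and 2 libraries a group were not tested. The 3 shared regions were in Fbn1 (2) and Fbln1 (1). GFP replicate 2 had a peak in 21 of the regions and knockout replicate 2 in 4, against 85.5% and 40.9% of all regions, and GFP replicate 1 and knockout replicate 1 had 15 and 11, against 47.7% of all regions for each.

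Fbn1 held 11 of the 26 regions. Its start region, chr2:125505740-125506369, lies inside the gene and ends 69 bases from the start. The authors' fold enrichment over local background there was 4.08, 6.08, 4.50 and 5.81 in GFP replicates 1 and 2 and knockout replicates 1 and 2. The other shared region, chr2:125303836-125304262 near the far end of the gene, had 3.85, 6.27, 5.42 and 4.43. Inside the gene, chr2:125368566-125369199 had 7.02 and 6.93 in the GFP libraries and no peak in the knockout, and chr2:125355631-125356208 had 5.34 and 5.61 and likewise none. These enrichments are the authors' values, each relative to its own library. Fbn2 had 3 regions, each with a peak in GFP replicate 2, of which 2 also had a peak in knockout replicate 1.

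Fbln5 had 5 regions, and 3 of them had peaks in both GFP and neither knockout library. The region between its first and internal starts, chr12:101818693-101819007, had a fold enrichment of 3.98 and 7.05 in GFP replicates 1 and 2. Of the remaining regions, chr12:101818379-101818587, over the internal start, had a peak in GFP replicate 2 alone (4.70). The single region with peaks in both knockout and no GFP library, chr12:101762161-101762539, also lay in Fbln5, with 3.66 and 3.36. At Fbln2, chr6:91212854-91213202 had 4.95 and 4.70 in the GFP libraries and no knockout peak. It lies 90 bases from the listed start at 91212764, which is itself inside the gene body. Efemp2, Mfap2 and Mfap5 each had 1 region, with a peak in 1 GFP library.

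Within 500 bp of a listed start, 1 of the 6 genes with a start in the table had peaks in all libraries (Fbn1), against 43.3% of 10520 genes, 2 had peaks in both GFP and no knockout library (Fbln2 and Fbln5), against 3.17%, and 2 had none (Fbln1 and Mfap2), against 28.8%. The distance of 500 bp was chosen after the peaks had been seen, and the count of 2 was the same at 250 and 1000 bp.

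**Figure D4:**
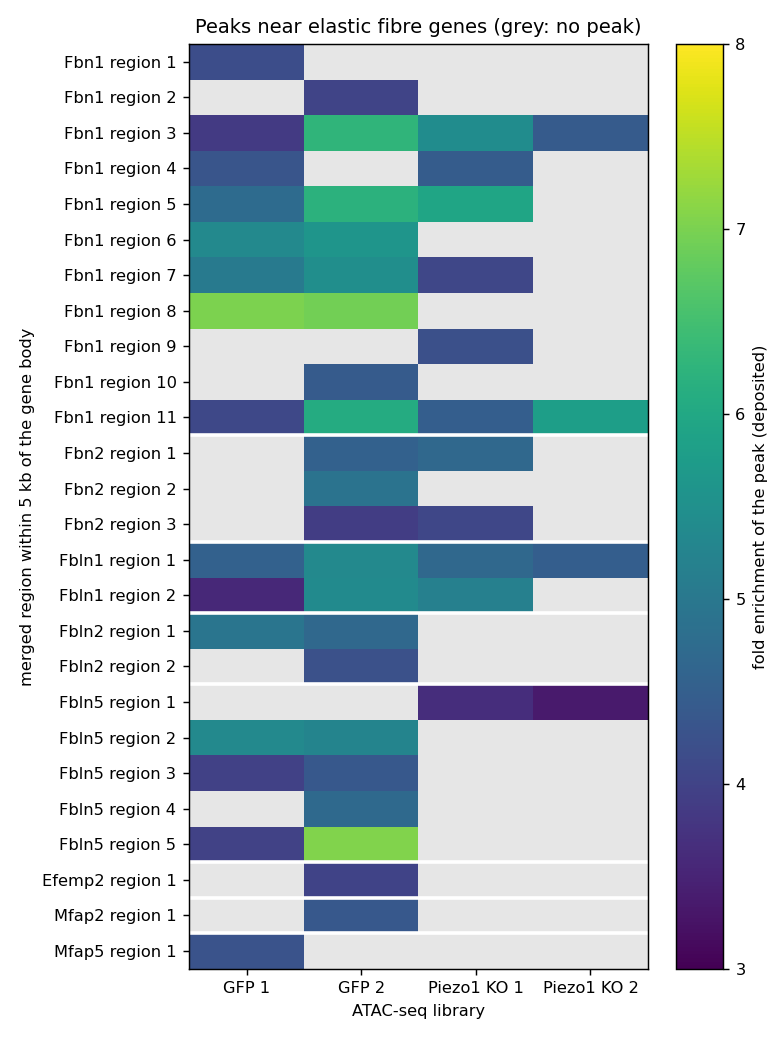
The authors' fold enrichment (colour) of ATAC-seq peaks in the 26 regions within 5 kb of the elastic fibre genes (rows, numbered along each gene from low to high coordinate) in 2 GFP and 2 Piezo1 knockout (KO) libraries (columns). Grey marks no peak, and 6 rows are coloured in both GFP columns and grey in both knockout columns. Eln and Mfap4 have no row.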

How the data were processed

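Counts per gene symbol were deposited for 6 RNA-seq libraries and 1 peak list for each of 4 ATAC-seq libraries. Per the submitters' processing notes, RNA-seq reads were handled with Trim Galore 0.6.5, STAR and HTSeq on mm10, with DESeq2 also named, and ATAC-seq reads with Trim Galore 0.6.5, Bowtie2 2.4.2 and MACS2. Per the labels' protocols, a single-cell kit for full-length transcripts amplified the cDNA; molecular identifiers are not mentioned, and exact intervals cover counting error only. The sources used here do not give the annotation, strand setting, handling of multi-mapping reads or peak threshold, so counts of genes that overlap or resemble others are uncertain. In the deposited lists each peak has a fold enrichment, a ratio over the background around it, and −log10 p and q values.

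The count fit across all genes used edgeR 4.0.16 in R 4.3.3 (TMM, filterByExpr, glmQLFit, glmQLFTest, two-sided), with Benjamini-Hochberg adjustment and a threshold of 0.05. SEs were derived from the F statistic and the fitted log2 change. The fit was tested on simulated data in which only genes with more counts than Eln, Mfap2 and Mfap4 were changed. Recovery of changes in genes as scarce as these was therefore not tested. The peak merging was tested on a small built case. DESeq2 1.42.0, limma-voom 3.58.1, other scalings, no filter, a replicate block and leaving out each library were alternatives. Peaks were merged at 1 bp overlap, and gene positions and promoters came from RefSeq on GRCm38.p6. No test was made of peaks.

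Named were all 10 genes, the called partners (up to 15, by absolute log2 fold change) and the 3 genes closest in profile to Eln (mean log2 CPM 2 or more), without predicted, clone-named and pseudogene models. The members and lists were chosen with earlier results of these data known.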

Additional observations from a re-analysis of the deposited data

How the results depend on the processing

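No change of direction occurred for the 10 elastic fibre genes, the 12 partner genes or the 3 genes closest to Eln under any alternative run. For the 10 genes, the number higher (0) was 1 with library size alone, 1 with no filter, 2 with DESeq2, 1 with limma-voom and 0 to 1 with 1 library left out, and 2 when static replicate 3 and strain replicate 1, chosen after seeing the data, were both left out. The number lower stayed between 3 and 6. With no filter Fbn1 and Fbn2 passed (adjusted p = 5.16e-04 and 4.73e-05), and the cause was not tested. Partner calls with 1 library left out ranged from 1 to 5 higher and from 2 to 6 lower. Over all genes, 911 were higher and 1134 lower, 369 to 1085 and 577 to 1244 with 1 library left out, 1428 higher with no filter and 1512 higher without the 2 libraries that stood apart. Of the genes called, 44.5% were higher with TMM and 55.6% with library size alone, which moved the median of all genes from 0.0049 to 0.05. The replicate block gave 2 of the 10 genes higher (Fbn1 and Fbln5) and 6 lower. Over the whole table it gave 1557 genes higher and 1619 lower. Deviations of same-numbered static and strained libraries correlated at 0.0278, 0.208 and 0.0943. Strain replicate 1 correlated best with static replicate 3 (0.0905), while every other library did so with its own number. The labels name no batch, so the main fit took no pairs, and a shared effect of same-numbered libraries was not tested.

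For chromatin, a distance of 20 kb gave peaks near 8 genes in GFP replicate 1, 8 in knockout replicate 1 and 6 in knockout replicate 2, and 8 regions shared by all libraries. Peaks with a −log10 q of at least 10 lay near 1 and 3 genes in the GFP and 0 and 1 in the knockout libraries, with 0 shared regions, 1 in GFP alone and 0 in the knockout alone. Requiring 50% of a region to be covered left 1 shared region. With 1 ATAC-seq library left out, each pattern needed only the libraries that remained. Then 3 to 6 regions were shared, 7 to 14 were in GFP alone and 1 to 2 in the knockout alone. The number in GFP alone was 14 without GFP replicate 1 and 9 without GFP replicate 2, and the cause was not tested. Depth limits Eln, Mfap2 and Mfap4, whose strained libraries held 2 to 37 counts.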
